A study of Mus musculus with 12 samples.

Results

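The cornified envelope genes of the epidermal differentiation complex were examined in skin RNA from mice with atopic dermatitis (AD)-like lesions, with and without diet-induced obesity. Members were all entries of the gene tables whose symbol starts with Sprr or Lce and a digit, together with the single genes Lor, Flg2, Ivl, Hrnr, Rptn and Crct1. Of 23282 entries, 43 met this rule: 16 Sprr genes, 21 Lce genes and 6 single genes. Flg belongs to the same rule and is not analysed here. The tissue was skin of wild-type male C57BL/6J mice. Both groups were painted on the dorsal skin with 0.5% DNCB (1-chloro-2,4-dinitrobenzene, a contact sensitiser) 3 times a week for 6 weeks. The AD group (5 mice) ate a normal diet. The HF + AD group (7 mice, written AD+OB in the labels) ate a diet with 60% of its calories as fat for 10 weeks, of which 4 preceded the DNCB. Both groups therefore carry the DNCB treatment, and no untreated skin enters the comparison. The question is whether the mRNAs of the envelope proteins differ when obesity is added to the dermatitis.

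When a keratinocyte leaves the basal layer it switches from Krt5 and Krt14 to Krt1 and Krt10, and near the surface it replaces its plasma membrane with the cornified envelope. Transglutaminases cross-link involucrin, loricrin, the small proline-rich (SPRR) proteins and the late cornified envelope (LCE) proteins into this shell, on a scaffold of desmosomal and plakin proteins. Filaggrin-2, hornerin and repetin are long S100-fused proteins packed with keratin in the outermost layers. The genes of these precursors and S100-fused proteins lie close together in the epidermal differentiation complex. In inflamed, thickened or wounded epidermis the Sprr1, Sprr2 and Lce3 genes are known as an inducible set, whereas Lor and the Lce1 genes belong to ordinary terminal differentiation.

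All 43 members lie on chromosome 3 of the mouse, between Lor (start 92080271) and Rptn (end 93399442) in the GENCODE M21 annotation of GRCm38. RefSeq promoter windows (GRCm38.p6, 250 bases before to 50 bases after the annotated start) were matched for 39 members by symbol. Sprr2g, Sprr2j-ps, Lce1f and Crct1 had no match. Of 5 motifs searched on both strands, TATAAA (the TATA motif) was in 18 of the 39 windows (46.2%) against 13.6% of 32851 windows of the whole table. The AP-1 motif TGANTCA was in 13 (33.3%) against 7.81%. The octamer motif ATGCAAAT was in 7 (17.9%) against 1.74%, and overlapped neither of the others in the sequences shown. GGGNGTGG (a KLF-type box) was in 3 (7.69%) against 17.6%, and AACCNGTT (a Grhl-type site) in 1 (2.56%) against 2.09%. A TATAAA starting 25 to 35 bases upstream of the start stood in 15 member windows (38.5%) and in 2.12% of all windows.

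The sequence shared within a family was clearest for Sprr2. Of its 10 windows, 7 (Sprr2b, Sprr2d, Sprr2e, Sprr2f, Sprr2h, Sprr2i and Sprr2k) held the TATA, AP-1 and octamer motifs together, a trio found in 16 of all 32851 windows (0.0487%). In these 7 the TATA motif started 29 bases upstream of the annotated start, the octamer 108 to 112 bases upstream and the AP-1 motif 182 to 198 bases upstream. The windows of Sprr2a1, Sprr2a2 and Sprr2a3 held none of these motifs, but they depend on the RefSeq start. Those of Sprr2a1 and Sprr2a2 end in letters that stand shortly before the TATA motif in Sprr2b. That of Sprr2a3 ends at 92285353, before the GENCODE start of the gene at 92285417. Motifs beyond these ends were not searched. None of 13 Lce1 or 6 Lce3 windows held the AP-1 or the octamer motif, and the TATA motif was in 2 and 1 of them. The 1 Lce3 match (Lce3e) lay on the opposite strand, 243 bases upstream. Only exact letters were searched, so near matches to TATAAA were not counted. The windows of Rptn, the one member that passed the test below, of Lor, the leading gene of ordinary differentiation, and of Sprr2d and Sprr2h, which share the trio but differed in the sign of their fold change with all mice, are shown 5′ to 3′ on the strand of the gene. Neither Sprr2d nor Sprr2h passed the test, and without AD mouse 1 both log2 fold changes were positive (0.34 and 1.83). Capitals mark the TATA, AP-1 and octamer motifs on either strand. A match is a run of letters and was not tested as a binding site.
Rptn (chr3:93393449-93393748, plus strand): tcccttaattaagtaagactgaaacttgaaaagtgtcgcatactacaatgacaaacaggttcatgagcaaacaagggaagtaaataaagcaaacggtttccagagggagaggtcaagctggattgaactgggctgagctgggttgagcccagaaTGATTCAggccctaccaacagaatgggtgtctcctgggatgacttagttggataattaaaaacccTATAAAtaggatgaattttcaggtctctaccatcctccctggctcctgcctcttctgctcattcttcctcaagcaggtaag
Lor (chr3:92083093-92083392, minus strand): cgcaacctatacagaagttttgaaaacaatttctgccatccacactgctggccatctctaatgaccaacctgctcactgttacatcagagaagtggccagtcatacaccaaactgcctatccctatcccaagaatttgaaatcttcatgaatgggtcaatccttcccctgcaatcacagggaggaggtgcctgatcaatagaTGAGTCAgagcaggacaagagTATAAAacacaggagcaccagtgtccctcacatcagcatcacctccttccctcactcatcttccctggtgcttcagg
Sprr2d (chr3:92338890-92339189, plus strand): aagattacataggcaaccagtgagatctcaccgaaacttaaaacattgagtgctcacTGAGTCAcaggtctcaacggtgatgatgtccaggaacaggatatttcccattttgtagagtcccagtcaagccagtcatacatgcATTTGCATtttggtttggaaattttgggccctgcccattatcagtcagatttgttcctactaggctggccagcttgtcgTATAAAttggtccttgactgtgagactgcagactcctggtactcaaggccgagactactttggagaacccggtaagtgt
Sprr2h (chr3:92385435-92385734, plus strand): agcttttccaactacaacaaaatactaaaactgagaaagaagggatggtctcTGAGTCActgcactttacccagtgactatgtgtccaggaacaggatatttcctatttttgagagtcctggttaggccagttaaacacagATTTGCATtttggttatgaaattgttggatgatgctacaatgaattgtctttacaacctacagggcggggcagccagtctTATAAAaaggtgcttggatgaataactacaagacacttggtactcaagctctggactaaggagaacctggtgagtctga

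The libraries were 3′-end counts (QuantSeq), with totals of 9746937 to 11688979 counts in AD and 10726845 to 13462434 in HF + AD. The labels number the libraries within a group; each is taken as 1 mouse, so the tests measure the spread between these libraries. Entries with reads numbered 13100 to 15063 in AD and 15522 to 16677 in HF + AD. The estimated number of counts per original molecule was 12.01 to 32.2 in AD and 3.86 to 7.29 in HF + AD. It was solved from the zeros among entries expected at 10 to 200 counts from the other mice of the group. Differences between mice can raise it as well, and counts below it occurred (Lce3b at 5 in AD mouse 4), so it is a rough scale. By this estimate every AD library rested on fewer molecules per count than every HF + AD library. AD mouse 1 stood apart: it had the highest estimate of counts per molecule, and S100a8 and S100a9, calprotectin genes of neutrophils and inflamed keratinocytes, reached 2405 and 1294 counts per 1000000 (CPM, TMM-scaled) against at most 204 and 163 in the other AD mice and 299.7 and 187 in HF + AD. Mpo, Elane and Cxcr2, which mark neutrophils more narrowly, were at 0, 0 and 1.91 CPM in AD mouse 1. Cxcr2 was at 0.303 to 1.45 CPM in the other AD mice and at 0.408 to 6.53 CPM in HF + AD. Its 21 counts in AD mouse 1 were below the 32.2 counts estimated for 1 molecule there. The hyperproliferation keratins of AD mouse 1 (Krt6a, Krt6b, Krt16 and Krt17) summed to 19813 CPM, against at most 9410 in the other AD mice and 7026 to 17814 in HF + AD. The same mouse had the highest summed levels of the AD group for markers of dermal fibroblasts (9893 CPM, against at most 5274 in the other AD mice and 3296 to 10286.5 in HF + AD), macrophages and dendritic cells (358, against at most 184 and 149 to 376), adipocytes (773, against at most 421 and 115 to 613) and T cells (19.9, against at most 6.22 and 2.68 to 5.72). No T cell marker had more than 106 counts in any AD library, where 1 molecule was estimated at 12.01 to 32.2 counts. AD mouse 1 was also the highest of the AD group for markers of mast cells (221, against at most 156 and 101 to 288) and endothelium (70.3, against at most 66.6 and 60.1 to 126). Its sums for hair shaft, inner root sheath and sebocyte markers were the lowest of the AD group. In bulk skin, fewer cells of a type and less RNA per cell cannot be told apart.

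Of the 43 members, 38 had enough reads to be tested with edgeR's quasi-likelihood test. None was called higher in HF + AD at an adjusted p under 0.05, against 4.43% of the 14163 genes tested. One member, Rptn, was called lower, which is 1 of 38, against 4.77% of all genes. At an unadjusted p under 0.05 there were 4 of 38 members, of which 1 was higher (Lce1k) and 3 were lower (Rptn, Sprr2d and Lce1i), against 25.1% of all genes (12.3% higher and 12.8% lower). The Wald test of DESeq2 called Lce1k higher beside Rptn, and limma-trend called no member higher. Fold changes were positive for 12 members and negative for 26, with a median log2 fold change of −0.37 against 0.02 over all tested genes. This balance rested on AD mouse 1: without it 27 members were positive and 11 negative, with a median of 0.34 against 0.04.

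**Figure D1:**
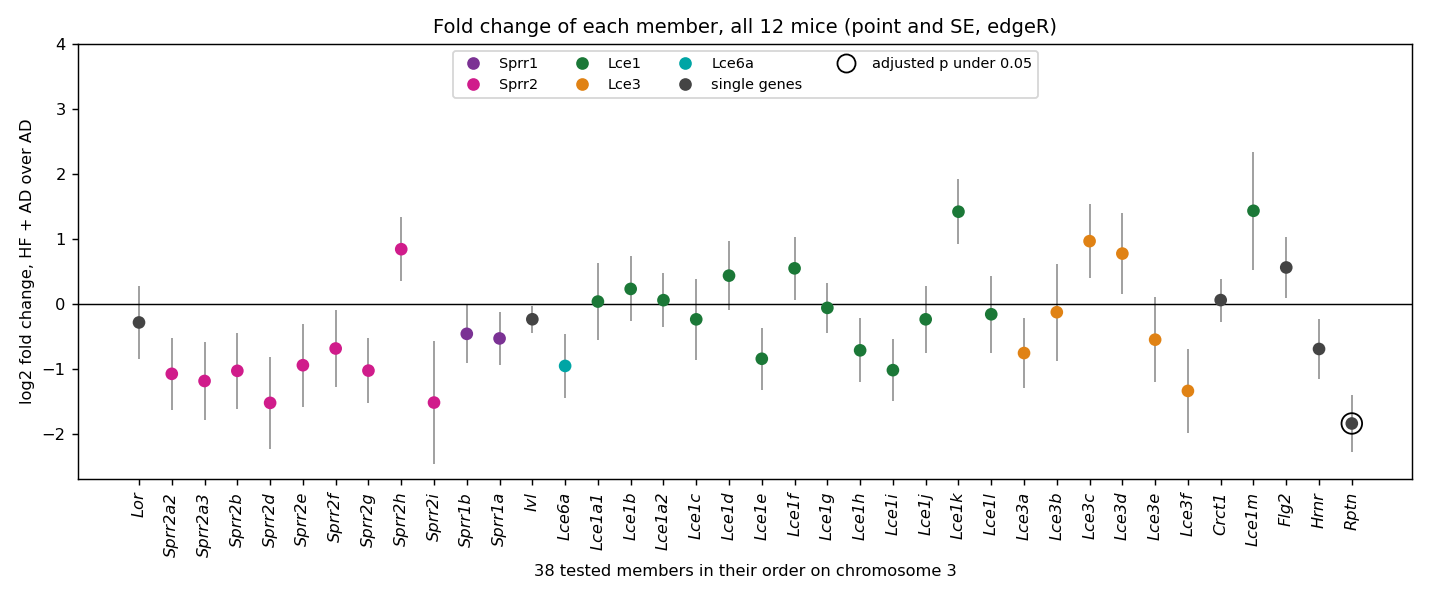
Log2 fold change of HF + AD over AD for the 38 tested members (points; bars are the SE) in their order along chromosome 3, coloured by family, with all 12 mice. Of the Sprr2 members 8 of 9 lie below 0, the Lce1 members lie on both sides, and Rptn at the far end, at −1.84, is the single circled member.

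Rptn (chr3:93393699-93399442, plus strand) encodes repetin, an S100-fused protein that binds calcium and is cross-linked into the envelope. Its level was 582, 149, 201, 65.2 and 149 CPM in AD mice 1 to 5. In the HF + AD mice it ranged from 23.8 to 114 CPM with a median of 55.9. AD mice 1, 2, 3 and 5 lay above all 7 HF + AD mice, and AD mouse 4 lay within their range. The log2 fold change was −1.84 (SE 0.43, adjusted p = 0.0167, edgeR), and the mean of log2(CPM + 1) was 7.47 ± 1.13 (SD, n = 5) in AD and 5.85 ± 0.78 (SD, n = 7) in HF + AD (two-sided exact permutation p = 0.0139). Without AD mouse 1 the fold change was −1.14 (SE 0.35, adjusted p = 0.0475, edgeR; exact permutation p = 0.0394). The call held in 20 of 21 other settings, with adjusted p from 0.00868 to 0.0972. The setting without a call was the replicate block, at −1.78.

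The 2 other S100-fused members did not pass the test. Hrnr (hornerin) was at 122, 61.8, 61.1, 21.1 and 186 CPM in AD mice 1 to 5, and at 13.8 to 129 CPM (median 52.3) in HF + AD. The groups overlapped over nearly all of their range, and the log2 fold change was −0.70 (SE 0.46, adjusted p = 0.377). Flg2 (filaggrin-2) stood at 59.4, 45.9, 63.1, 22.9 and 76.0 CPM in the AD mice, and HF + AD mice spread from 16.6 to 189 CPM around a median of 67.6. Of the HF + AD mice 3 exceeded every AD mouse and 1 lay below all AD mice, with a log2 fold change of 0.56 (SE 0.47, adjusted p = 0.504).

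Lor encodes loricrin, the major protein of the mature envelope. AD mice 1 to 5 had 500.4, 176, 133, 99.5 and 751 CPM, and HF + AD mice had 36.5 to 581 CPM with a median of 259.9. Both groups thus held mice with low and mice with high Lor, and the fold change of −0.29 (log2, SE 0.57, adjusted p = 0.804) was well within that spread. Ivl encodes involucrin, an early scaffold protein of the envelope. Its AD values were 109, 86.4, 71.8, 73.3 and 135 CPM, against 57.3 to 121 CPM (median 81.2) in HF + AD, and the SD of its log2(CPM + 1), 0.39 in each group, was far below that of Lor (1.26 and 1.43). The log2 fold change of Ivl was −0.24 (SE 0.21, adjusted p = 0.518). Crct1, a small cysteine-rich gene between the Lce3 genes and Lce1m, had 431, 131, 127, 83.7 and 289 CPM in AD and 121 to 332 CPM (median 212) in HF + AD, a log2 fold change of 0.06 (SE 0.33, adjusted p = 0.944). The sign of Crct1 and Lor changed in some of the leave-one-out fits.

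**Figure D2:**
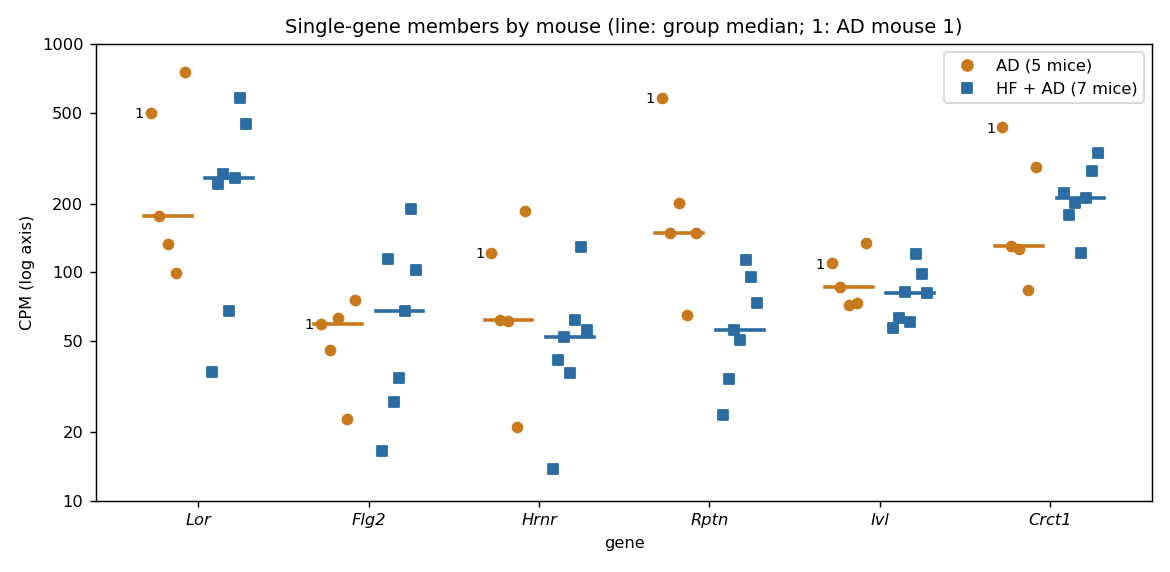
CPM of the 6 single-gene members in each mouse on a log axis; circles are the 5 AD mice, squares the 7 HF + AD mice, lines the group medians, and 1 marks AD mouse 1. For Rptn 4 of 5 AD mice lie above all HF + AD mice, for the other 5 genes the groups overlap.

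The Sprr1 genes encode small proline-rich proteins that cross-bridge the envelope under stress. Sprr1a had 1583, 377, 305, 343 and 622 CPM in AD mice 1 to 5 and 188 to 767 CPM (median 386) in HF + AD. Sprr1b had 704, 99.3, 123, 108 and 109 CPM in AD and 78.9 to 238 CPM (median 166) in HF + AD. For both genes AD mouse 1 was the highest of all 12 mice. The log2 fold changes were −0.53 (SE 0.41, adjusted p = 0.454) for Sprr1a and −0.46 (SE 0.44, adjusted p = 0.565) for Sprr1b, and turned to 0.12 and 0.60 without that mouse, neither of them called.

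The Sprr2 family had 12 entries, of which 9 were tested. Sprr2a2 had 781 CPM in AD mouse 1, then 80.2, 125, 102 and 63.8 CPM in AD mice 2 to 5, and 52.6 to 240 CPM (median 70.1) in HF + AD. Sprr2a3 had 307 CPM in AD mouse 1, then 21.8, 43.6, 30.1 and 17.3 CPM, and 16.3 to 77.8 CPM (median 26.7) in HF + AD. Both showed 1 high AD mouse and otherwise overlapping groups. Sprr2d followed the same pattern, with 285 CPM in AD mouse 1, then 25.4, 9.39, 21.9 and 23.8 CPM, and 7.29 to 52.4 CPM (median 21.0) in HF + AD. Its log2 fold change of −1.53 (SE 0.71, adjusted p = 0.190) became 0.34 (SE 0.50, adjusted p = 0.713) without AD mouse 1. Among the tested Sprr2 genes 8 of 9 had negative fold changes in the 12 mice (median −1.03), and 8 of 9 had positive ones without AD mouse 1 (median 0.34). The summed Sprr2 level was 1829 CPM in AD mouse 1 and 152 to 229 CPM in AD mice 2 to 5, against 116 to 527 CPM in HF + AD.

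Sprr2h was the tested Sprr2 gene with a positive fold change in the 12 mice. It had 76.0, 8.91, 10.6, 19.6 and 12.04 CPM in AD mice 1 to 5, and 20.3 to 90.2 CPM (median 40.8) in HF + AD. All 7 HF + AD mice were above AD mice 2 to 5, and AD mouse 1 lay among the highest of the HF + AD mice. The log2 fold change was 0.84 (SE 0.49, adjusted p = 0.311) with all mice and 1.83 (SE 0.37, adjusted p = 0.00993, edgeR) without AD mouse 1. Since 1 library decided this call, the value from all 12 mice stands as the result.

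The reads of the Sprr2a genes could not be assigned to single genes with the sequence at hand. In GENCODE M21, all 75-base words of the last 300 bases of Sprr2a1 and of Sprr2a2 recur in another Sprr2a gene, as do 67.7% of those of Sprr2a3, and Sprr2a1 and Sprr2a2 overlap on the same strand. Sprr2a1 was listed at 0 in every mouse beside the high count of Sprr2a2. No 75-base word of the other Sprr genes was shared. Within Lce3, 35.8% of the words of Lce3d and 12.8% of those of Lce3c recur in other Lce3 genes. Of the Lce1 genes, Lce1b shared the most (16.4%), and Lce1k and Lce1d shared 8.41% and 9.73% with each other. With words of 50 bases 18 members shared a word, in place of 12 with 75 bases. The shares were then 19.1% for Sprr2b, 32.7% for Lce1b, 17.5% for Lce1k and 42.2% for Lce3d.

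The other 5 members had too few reads for this test. Sprr2a1 and Sprr3 had no read in any mouse and could not be tested at all. Sprr2j-ps had reads in 1 AD mouse (4.54 CPM) and 4 HF + AD mice (at most 0.90 CPM). Sprr2k and Sprr4 had 0 counts in the 5 AD libraries and were counted in 5 of 7 HF + AD mice each, at most 0.54 and 0.77 CPM (two-sided exact permutation p = 0.0455 each). With no filter on low counts, none of Sprr2j-ps, Sprr2k and Sprr4 was called by edgeR (adjusted p = 0.569, 0.103 and 0.0944). The highest counts of Sprr2k and Sprr4, 7 and 10, were below the 12.01 to 32.2 counts estimated for 1 molecule of an AD library, so no fold is given.

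The Lce1 genes encode late envelope proteins laid down in normal epidermis. Lce1a1 had 995, 173, 204, 66.8 and 428 CPM in AD and 74.1 to 910 CPM (median 302) in HF + AD, with a log2 fold change of 0.03 (SE 0.59, adjusted p = 0.983). Lce1b ran from 12.5 to 103 CPM in AD and from 13.2 to 109 CPM in HF + AD, Lce1c from 12.2 to 154 and from 9.17 to 137 CPM, and Lce1d from 18.8 to 154 and from 16.6 to 155 CPM. For these 4 genes the 2 groups covered nearly the same range. Over the family the fold changes were positive for 7 members and negative for 7 (median −0.01), and positive for 10 and negative for 4 without AD mouse 1 (median 0.28).

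Values are given for 3 further Lce1 genes, chosen after their values were seen. Lce1k had 8.80, 15.6, 3.54, 7.08 and 24.1 CPM in AD mice 1 to 5 and 13.7 to 76.4 CPM (median 19.3) in HF + AD, so that 3 HF + AD mice exceeded every AD mouse and 3 AD mice lay below every HF + AD mouse. The log2 fold change was 1.42 (SE 0.50, adjusted p = 0.0835, edgeR), and the exact permutation p was 0.0379, or 0.0758 without AD mouse 1. Lce1k did not share the high value of AD mouse 1. Lce1f had 29.9, 7.98, 4.14, 2.74 and 4.89 CPM in AD and 9.48 to 23.0 CPM (median 13.4) in HF + AD. Its log2 fold change was 0.55 (SE 0.49, adjusted p = 0.534), and 1.56 (SE 0.36, adjusted p = 0.0142, edgeR) without AD mouse 1. Lce1i went the other way, from 77.7, 23.4, 25.7, 12.2 and 81.6 CPM in AD to 7.09 to 47.2 CPM (median 18.1) in HF + AD (log2 fold change −1.02, SE 0.48, adjusted p = 0.196). Lce6a, a lone gene before the Lce1 cluster, had 36.6, 12.5, 12.02, 6.46 and 29.1 CPM in AD and 3.47 to 23.9 CPM (median 7.04) in HF + AD (log2 fold change −0.96, SE 0.49, adjusted p = 0.234).

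The Lce3 genes encode envelope proteins that appear after barrier injury. Lce3c had 125, 17.3, 19.2, 13.9 and 12.3 CPM in AD mice 1 to 5 and 35.04 to 158 CPM (median 47.4) in HF + AD. Lce3d had 82.1, 3.73, 11.7, 7.79 and 12.04 CPM in AD and 16.9 to 82.9 CPM (median 24.3) in HF + AD. For both, every HF + AD mouse exceeded AD mice 2 to 5. With all mice the log2 fold changes were 0.96 (SE 0.57, adjusted p = 0.319) and 0.77 (SE 0.62, adjusted p = 0.479), and without AD mouse 1 they were 2.23 (SE 0.43, adjusted p = 0.00869, edgeR) and 2.19 (SE 0.48, adjusted p = 0.0123, edgeR). Lce3a and Lce3f, with AD mouse 1 at 107 and 69.0 CPM, ranged from 8.06 to 24.2 and from 5.31 to 16.2 CPM in the other AD mice, against 10.9 to 35.9 and 1.71 to 14.7 CPM in HF + AD. Their groups overlapped with and without AD mouse 1. With all mice the log2 fold changes of Lce3a and Lce3f were −0.76 (SE 0.53, adjusted p = 0.410) and −1.34 (SE 0.65, adjusted p = 0.207), and without that mouse they were 0.48 (SE 0.37, adjusted p = 0.444) and −0.10 (SE 0.55, adjusted p = 0.932).

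Leaving out AD mouse 1, 4 members were called higher (Sprr2h, Lce1f, Lce3c and Lce3d), against 5.38% of the 14410 genes then tested, and Rptn was called lower, against 4.66%. For each of these 4, and for no other tested member, all HF + AD mice lay above the 4 remaining AD mice, as they did for 4.53% of all genes. The 4 were called on these same values, so this is a description. Leaving out AD mouse 5 added Lce1k, and no other single omission called a member higher. Beside these 4 members, 3 of 9 suprabasal markers were called higher without AD mouse 1 and 0 with it: Krtdap (log2 fold change 1.03, SE 0.26), Sbsn (0.71, SE 0.19) and Dmkn (0.69, SE 0.16). Markers of other cell types gained calls in the same way, each list from 0: Col3a1 (1.44, SE 0.35) and Pdgfra (1.44, SE 0.43) of 6 dermal fibroblast markers, Csf1r (2.30, SE 0.57) and H2-Aa (1.31, SE 0.22) of 7 macrophage and dendritic cell markers, and Krt16 (0.95, SE 0.26) of 4 hyperproliferation keratins. Their part in the values of the members was not tested.

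**Figure D3:**
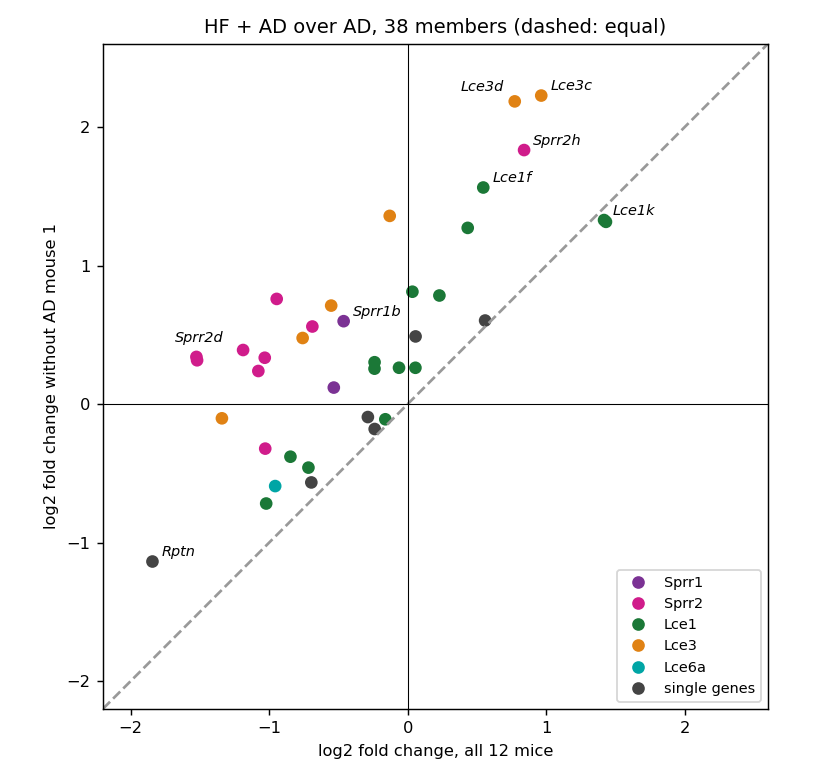
Log2 fold change of HF + AD over AD for the 38 tested members with all 12 mice (x axis) and without AD mouse 1 (y axis), coloured by family, with the dashed line marking equal values. Nearly all members lie above the line, the Sprr2 members cross 0 apart from Sprr2g and Sprr2h, and Rptn stays below 0 at −1.84 and −1.14.

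AD mouse 1 had the highest value of all 12 mice for 24 of the 38 tested members, among them 8 of 9 Sprr2, 4 of 6 Lce3 and 7 of 14 Lce1 genes. No other mouse was the highest for more than 5. Some mice were high in more than one family: HF + AD mouse 7 was above the median of the 12 mice for 14 of 14 Lce1, 6 of 6 Lce3 and 6 of 9 Sprr2 genes, and HF + AD mouse 5 for 7, 5 and 8 of them. HF + AD mouse 6 was above the median for 14 of 14 Lce1 genes but for 2 of 6 Lce3 and 4 of 9 Sprr2 genes, and AD mouse 4 for 0 of 14 Lce1 genes. HF + AD mouse 1 was above the median for 8 of 9 Sprr2 and 5 of 6 Lce3 genes, but for 1 of 14 Lce1 genes, and it had the lowest Lor of all mice. HF + AD mouse 4 was the lowest of all for 6 of 9 Sprr2 genes.

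**Figure D4:**
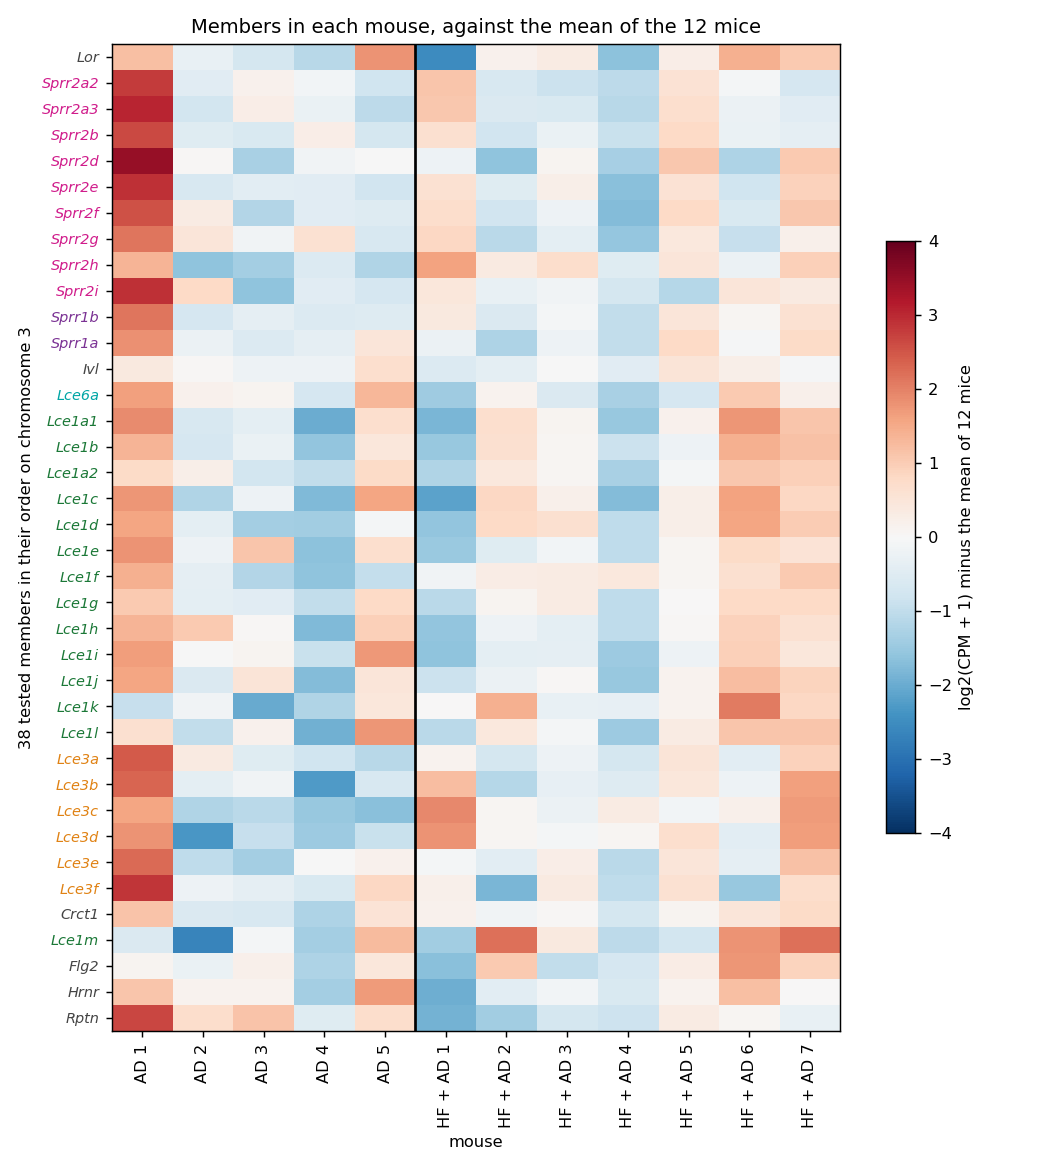
Log2(CPM + 1) of each tested member (rows, in chromosome order, names coloured by family) in each mouse (columns; the black line parts AD from HF + AD), minus the mean of the 12 mice. AD mouse 1 is red over nearly all of the Sprr2 and Lce3 rows, and HF + AD mouse 1 is red in most of those rows and blue in Lor and most Lce1 rows.

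To describe how the families varied together, the member with the highest mean CPM of Lce1, Sprr1, Sprr2 and Lce3 was paired with Lor and with each other, 10 pairs in all, over the 12 mice. Lor and Lce1a1 moved together (Pearson r = 0.904, Benjamini-Hochberg adjusted permutation p = 0.0011, and Spearman rho = 0.853, adjusted permutation p = 0.0074). The Pearson correlation was 0.866 without the 2 mice farthest from the median Lor and 0.975 within HF + AD (n = 7, exact permutation p = 0.00119). It was the one pair past the adjusted threshold in both measures. Lor and Sprr2a2 showed r = 0.003 (adjusted permutation p = 0.993, rho = −0.08), a value that rested on AD mouse 1, since r was −0.417 without it and −0.331 within HF + AD (n = 7, exact permutation p = 0.483). Sprr1a and Sprr2a2 showed r = 0.643 (adjusted permutation p = 0.139, rho = 0.315), which fell to 0.126 without the 2 farthest mice and to 0.211 without AD mouse 1. Genes in one library share its depth and its mix of cells, and the part of either was not tested.

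**Figure D5:**
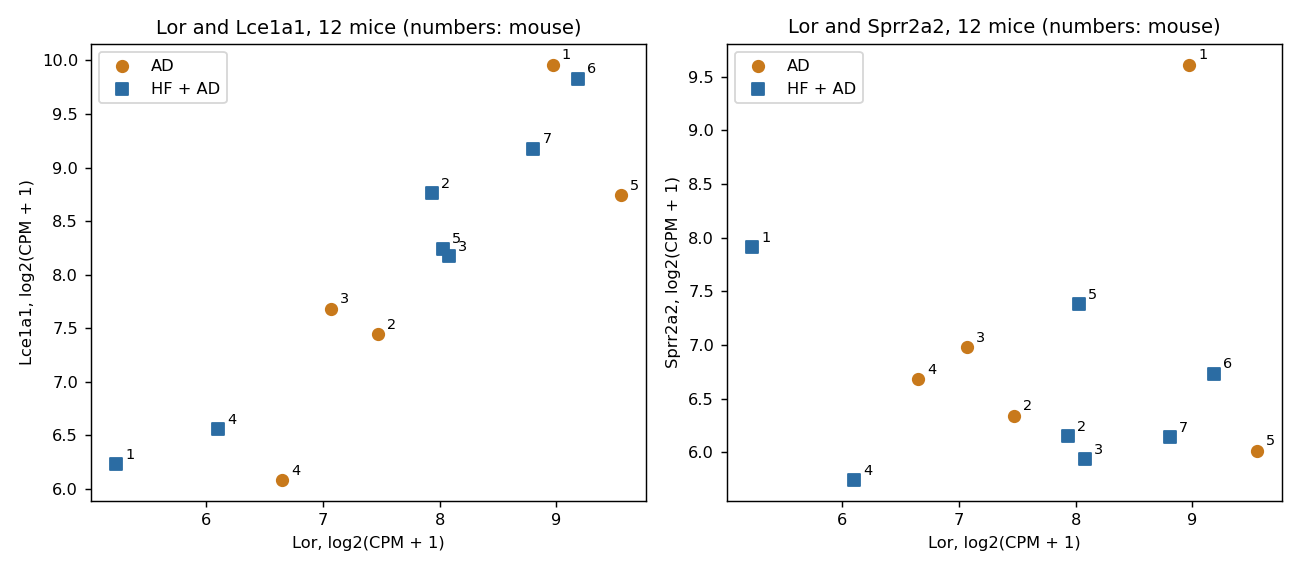
Log2(CPM + 1) of Lce1a1 (left) and Sprr2a2 (right) against Lor in the 12 mice; circles are AD, squares HF + AD, and numbers name the mouse. The Lce1a1 points rise along a line in both groups (r = 0.904), and the Sprr2a2 points do not (r = 0.003, and −0.417 without AD mouse 1, the highest Sprr2a2 point).

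Each member was then set against Krt1 and Krt10, the suprabasal keratins of the same library. Krt1 (log2 fold change 0.12, SE 0.58, adjusted p = 0.926) and Krt10 (−0.42, SE 0.54, adjusted p = 0.690) did not pass the test themselves. Against their mean on the log2(CPM + 1) scale, Rptn was 1.23 ± 0.53 (SD, n = 5) in AD and −0.36 ± 0.81 (SD, n = 7) in HF + AD, with 6 of 7 HF + AD mice below every AD mouse (difference −1.59, two-sided exact permutation p = 0.00631). On its own Rptn differed by −1.62 on the same scale. Without AD mouse 1 the difference was −1.64 for the ratio and −1.19 for Rptn on its own. Lor lay 1.70 ± 0.81 (SD, n = 5) above the keratins in AD and 1.42 ± 0.26 (SD, n = 7) in HF + AD (exact permutation p = 0.465). Among the 38 members the unadjusted exact p was under 0.05 for Rptn, Lce6a (difference −0.85) and Lce1i (−0.85), which were lower, and for Lce1d (0.60), which was higher, against 0.106% of 14161 genes lower and 0.353% higher. After Benjamini-Hochberg adjustment 0 of the 14161 genes passed, and so none of the 38. Each ratio carries the spread of Krt1 and Krt10 between mice, so these shares depend on the divisor. Nothing is read from these counts about the members. Against Krt5 and Krt14 the unadjusted exact p was under 0.05 for 15 of the 38 members, all lower, and for 53.6% of all genes, lower as well. Krt5 and Krt14 were themselves called higher (log2 fold changes 0.81 and 1.05, adjusted p = 0.00679 and 0.0248, edgeR), which lowers the ratio of any gene that does not rise with them, so nothing is read from this ratio about the members.

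Proteins that build or join the envelope from outside the family were read in the same fit, in lists chosen with earlier results of these data known. Over all tested genes 4.43% were called higher and 4.77% lower, with a median log2 fold change of 0.02. Of 9 cross-linking and scaffold genes, 3 were called higher, namely Dsp (desmoplakin, log2 fold change 0.75, SE 0.21), Cdsn (corneodesmosin, 0.97, SE 0.30) and Cst6 (cystatin M/E, a protease inhibitor upstream of the transglutaminases, 1.02, SE 0.28), and 1 lower, Ppl (periplakin, −0.54, SE 0.15); the median of the list was 0.75. Cst6 was at 98.9 to 309 CPM in AD and 221 to 559 CPM in HF + AD, with 4 HF + AD mice above every AD mouse. These calls were not firm, since Dsp, Cdsn, Cst6 and Ppl held in 13, 8, 15 and 14 of the 21 other settings. Without AD mouse 1 the list had 3 genes called higher and 0 lower (Ppl −0.45, adjusted p = 0.0673).

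Of 14 filaggrin-processing genes, Padi1 and Padi3, which convert arginine to citrulline in filaggrin and hair proteins, were called higher and none lower (median of the list 0.24). Without AD mouse 1 the list had 4 genes called higher, with Blmh (0.62, SE 0.15) and Spink5 (0.94, SE 0.25) added. Padi1 was at 15.8 to 69.3 CPM in AD and 63.0 to 119 CPM in HF + AD (log2 fold change 1.38, SE 0.31, adjusted p = 0.0145, edgeR). Padi3 was at 70.7 to 99.3 CPM in AD and 103 to 199 CPM in HF + AD without overlap (0.78, SE 0.17, adjusted p = 0.0109, edgeR). Padi3 was called in all 21 other settings and Padi1 in 20. None of 13 genes of the corneocyte lipid envelope was called by edgeR, with 3 at an unadjusted p under 0.05 (25.1% of all genes) and a median log2 fold change of −0.27. The 2 with the highest mean CPM were Elovl4, a fatty acid elongase, at 701 to 1057 CPM in AD and 708 to 1337 CPM in HF + AD, and Slc27a4, a fatty acid transporter, at 122 to 226 and 189 to 402 CPM. Of 26 regulators of terminal differentiation, Ovol1 (a repressor that drives exit from the cell cycle) was called higher (0.62, SE 0.16, adjusted p = 0.0232, edgeR) and Junb (an AP-1 subunit) lower (−0.53, SE 0.14, adjusted p = 0.0269, edgeR), with a list median of −0.05. Ovol1 was called in 19 of the 21 other settings and Junb in 15 (adjusted p up to 0.0915), so the call of Junb was no firmer than that of Cst6. Tslp, an epithelial cytokine of atopic skin, was the 1 called gene of 6 tested cytokine genes and was lower (−1.53, SE 0.46, adjusted p = 0.0449, edgeR; called in 8 of 21 other settings). The call of Tslp was lost without AD mouse 1 (−1.14, SE 0.45, adjusted p = 0.113, edgeR).

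Neighbours in the same complex that the rule does not take in were read as well. Of 18 tested neighbours 5 were called higher (S100a3, S100a6, Tchhl1, Prr9 and Crnn) and none lower, with a median log2 fold change of 0.35. S100a3 (1.32, SE 0.27), S100a6 (0.91, SE 0.24), Tchhl1 (1.04, SE 0.17) and Prr9 (0.91, SE 0.20, all log2 fold changes with adjusted p from edgeR of at most 0.0268) were higher, and without AD mouse 1 S100a4 was called as well (1.01, SE 0.19). S100a6 was called in 16 of the 21 other settings, S100a3 in 20, and Tchhl1 and Prr9 in all 21. Tchhl1, a trichohyalin-like gene, was at 83.8 to 144 CPM in AD and 186 to 312 CPM in HF + AD without overlap. The other call was Crnn (cornulin), with 0 counts in each AD library and 4 to 33 counts (0.327 to 2.48 CPM) in HF + AD. Crnn passed the filter only through the HF + AD group, so its call is not read as a result. With an estimated 12.01 to 32.2 counts per molecule in AD, its counts come to few molecules of an AD library, so no fold is given. Beside these, 3 of 9 hair shaft keratins (Krt31, Krt34 and Krt86) and 2 of 7 inner root sheath genes (Krt27 and Krt71) were called higher, with summed levels of 2577 to 5276 CPM in AD and 3979 to 6584 CPM in HF + AD for the hair shaft list. The call of Krt86 (1.13, SE 0.34, adjusted p = 0.0431, edgeR) was lost without AD mouse 1 (0.94, SE 0.32, adjusted p = 0.0673) and held in 9 of the 21 other settings. S100a3, Tchhl1, Prr9, Padi1 and Padi3 are genes of the hair follicle as well, and the part of follicle content in their change was not tested.

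Of 7 basal markers 3 were called higher (Krt5, Krt14 and Krt15), and Itga6, Itgb4, Col17a1 and Dst were not. The summed level of the 7 was 3779 to 5647 CPM in AD and 6377 to 11072 CPM in HF + AD without overlap. None of the 9 suprabasal markers was called by edgeR with all mice (2 at an unadjusted p under 0.05, against 25.1% of all genes), at 956 to 4097 CPM in AD and 1244 to 2199 CPM in HF + AD, with AD mouse 1 at the upper end. Of 5 endothelial markers 2 were called higher, Cdh5 (1.56, SE 0.42) and Kdr (1.06, SE 0.27), with a list median of 1.04. Their calls held in 15 and 18 of the 21 other settings. Of 9 skeletal muscle markers 8 had negative fold changes (median −0.72), and Acta1 (−0.72, SE 0.22, adjusted p = 0.0481, edgeR) was called lower, a call lost without AD mouse 1 (−0.75, adjusted p = 0.0525). Acta1 was called in 10 of the 21 other settings. Of 6 tested sebocyte markers Scd1 was called lower (−0.74, SE 0.16). No marker of the adipocyte, fibroblast, macrophage and dendritic cell, T cell, mast cell or neutrophil lists was called by edgeR with all mice. At an unadjusted p under 0.05, against 25.1% of all genes, Pdgfra (fibroblasts), H2-Aa (macrophages and dendritic cells), Cpa3 (mast cells) and Cxcr2 had positive fold changes and Cd3g (T cells), S100a8 and S100a9 negative ones. Of the 3 tested T cell markers the other 2, Cd3d and Cd4, had positive fold changes. Of the neutrophil list, S100a8 and S100a9 had log2 fold changes of −1.53 and −1.57 with all mice, and of 0.70 and −0.08 without AD mouse 1. Cxcr2 had 3 to 21 counts in the AD libraries, which held an estimated 12.01 to 32.2 counts per molecule, so no fold is given for it. Cd3g, Cd3d and Cd4 had at most 106, 38 and 33 counts there, and no fold is given for them either. The part of these shifts in the values of the members was not tested.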

How the data were processed

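Skin RNA of 12 mice (5 AD, 7 HF + AD) was sequenced as QuantSeq 3′ libraries. The authors deposited raw counts per gene for each mouse, and their processing notes name Bowtie2, bedtools and mm10; the versions are not given in the sources used here, nor is the treatment of duplicate or multi-mapping reads. Groups came from the labels. The members and all gene lists were chosen with earlier results of these data known.

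Counts were scaled by TMM, filtered by expression within groups and tested over all genes with the quasi-likelihood test of edgeR 4.0.16 (R 4.3.3; group only; Benjamini-Hochberg, threshold 0.05). Named were the single genes, every called member, the 4 highest members by mean CPM of each family and, of each other list, called genes (at most 5) or otherwise the 2 highest; Lce1k, Lce1f, Lce1i, the marker genes and genes called without AD mouse 1 were named after their values were seen. Single values used log2(CPM + 1) and exact permutation (two-sided, 792 splits, absolute difference of group means; smallest p 0.00126; SciPy 1.17.1). Alternatives were other scalings and filters, DESeq2 1.42.0, limma-trend (limma 3.58.1), a replicate block, counts divided by counts per molecule, and each mouse left out. The tests were tried on simulated data. Same-numbered mice did not deviate together.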

Additional observations from a re-analysis of the deposited data

Results flagged for a closer look

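In 5 of the 76 groups looked at (38 members in 2 groups), the highest mouse stood further from the next than Dixon's 95% limit allows, and each time it was AD mouse 1. The gap to the nearest mouse, divided by the range of the 5 AD mice on the log2(CPM + 1) scale, was 0.733 for Sprr2a2, 0.719 for Sprr2d, 0.906 for Sprr2e, 0.892 for Sprr1b and 0.814 for Lce3c, against a limit of 0.710. Chance alone passes this limit in about 1 in 20 groups, and members of a family are not independent of each other.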

How the results depend on the processing

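The members called higher in HF + AD numbered 0 with all mice, 1 with the Wald test of DESeq2 and 0 to 4 with 1 mouse left out. The log2 fold change of Rptn ran from −2.07 to −1.14 with 1 mouse left out, each time called. With the replicate block, which pairs mice by number although same-numbered mice did not deviate together (r from −0.08 to 0.04), 1 member was called higher (Lce3c, 1.21, adjusted p = 0.0419), 0 were called lower (Rptn −1.78, adjusted p = 0.0972), 5 of the other barrier genes were called in place of 14, and 192 of all genes in place of 1303. The 14 called with all mice include Crnn, which had 0 counts in each AD library. Leaving out 1 mouse gave 7 to 15 of the other barrier genes. The sign turned with the block for Flg2 (−0.26), Lce1a1 (−0.20) and Lce1b (−0.13). With 1 mouse left out the log2 fold changes of these members spanned 0: Lor −0.59 to 0.28, Crct1 −0.14 to 0.49, Sprr1a −0.72 to 0.12, Sprr1b −0.65 to 0.60, Sprr2a2 −1.40 to 0.24, Sprr2a3 −1.48 to 0.39, Sprr2d −1.81 to 0.34, Lce1a1 −0.34 to 0.81, Lce1b −0.045 to 0.78, Lce1c −0.58 to 0.26 and Lce3a −0.99 to 0.48. The difference of Lor in log2(CPM + 1) spanned −0.64 to 0.084 and its ratio to Krt1 and Krt10 −0.51 to 0.036. The cause was not tested. Another 591 tested values kept their direction and side of the threshold, and 52 counts of calls stayed within 1.5 times the count from all mice. By the estimate, counts per molecule limit the AD libraries more than their totals show.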
